A study of Mus musculus with 8 samples.

Results

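The genes described here are 10 adhesive and matricellular genes of the extracellular matrix, *Fn1*, *Postn*, *Tnc*, *Thbs1*, *Thbs2*, *Vcan*, *Npnt*, *Fbln1*, *Emilin1* and *Tgfbi*. They were taken by name from the counts table, in which each symbol matched 1 of 43432 mouse Ensembl gene identifiers. All 10 passed the filter on low counts and were among the 15422 genes tested. The table holds RNA-seq counts of lung myofibroblasts from C57BL/6 mice at postnatal day 7. The 4 libraries that carry the label Fra-2 transgenic are called the Fra-2-labelled libraries (Fra-2 1 through 4) and are described as expressing Fra-2 constitutively, and the 4 control libraries (control 1 to control 4) are labelled wild type. Fra-2 is an AP-1 transcription factor encoded by *Fosl2*. The labels give neither the promoter of the transgene nor whether the libraries came from separate animals, and p-values therefore describe the spread between these 8 samples, which may be technical. They also do not say how the cells were isolated. *Fosl2* itself measured 104 to 166 CPM in the Fra-2-labelled libraries and 105 to 141 CPM in the controls (edgeR adjusted p = 0.888). The transgene was thus not visible as more *Fosl2* reads, and the groups are called by their labels. CPM is the count scaled to library size, and values are means ± SD over n = 4 libraries per group unless given for each library.

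Matricellular proteins are secreted into the matrix, where they bind cells, growth factors and structural fibres rather than bearing load themselves. Fibronectin forms a fibrillar network on which other matrix proteins are deposited. Fibronectin, nephronectin and the fasciclin-domain proteins periostin and TGFBI are bound by integrins, and thrombospondins also bind CD47 and CD36. In the developing lung, mesenchymal cells deposit these proteins together with elastin and collagen while the alveolar walls divide the airspaces.

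Total counts were 29926239 to 38954848 in the Fra-2-labelled libraries and 31986025 to 41335957 in the controls. *Xist* and Y-linked genes put 2 females and 2 males in each group. Each group thus came from more than 1 animal, but whether every library had its own is not known. The 12 alveolar myofibroblast markers, *Tgfbi* among them as the most abundant, summed to 18400 to 20900 CPM in Fra-2-labelled libraries and 18600 to 20400 CPM in controls. Without *Tgfbi*, the other 11 summed to 14000 to 17000 CPM in Fra-2-labelled libraries and 14100 to 15200 CPM in controls. Against 0.72% higher and 0.298% lower over all genes, 0 of the 12 were called higher and 1 was called lower. This was *Enpp2*, autotaxin, with 376 ± 74.9 CPM in Fra-2-labelled libraries and 571 ± 37.9 CPM in controls (edgeR adjusted p = 0.0447), a call lost in 7 of the 8 fits that left out 1 library. It was also lost with upper-quartile scaling (edgeR adjusted p = 0.0646), total-count scaling (0.0731), no robust dispersion (0.053) and a sex term (0.0817). Markers of other lineages were less abundant. The 12 epithelial markers summed to 118 to 227 CPM in Fra-2-labelled libraries and 60.2 to 142 CPM in controls, led by *Sftpc*. The 12 endothelial markers, led by *Erg*, summed to 152 to 168 CPM in Fra-2-labelled libraries and 119 to 155 CPM in controls. The 12 immune markers, led by *Lyz2*, summed to 133 to 171 CPM in Fra-2-labelled libraries and 100 to 153 CPM in controls. The sums of 9 mesothelial markers, led by *Rspo1*, were 10.9 to 19.2 CPM in Fra-2-labelled libraries and 9.87 to 15 CPM in controls. The cartilage markers, led by *Col2a1* and with *Matn1* at 0 in every library, summed to 73.5 to 102 CPM in Fra-2-labelled libraries and 57.8 to 82.5 CPM in controls. The 11 pericyte and vascular smooth muscle markers, led by *Rgs5*, summed to 2250 to 2580 CPM in Fra-2-labelled libraries and 2430 to 2880 CPM in controls. None of these markers of other lineages passed the test, and their part in the results was not tested.

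Together the 10 genes took 2.28 ± 0.143% of all counts in the Fra-2-labelled libraries and 2.10 ± 0.124% in the controls. Each gene held at least 1900 reads in every library (*Emilin1*) and up to 298852 (*Tnc*). Levels of different genes are compared per length, as CPM per kb of exon. *Tgfbi*, which encodes a TGF-beta-inducible adhesion protein, was highest with 1124 ± 62.7 CPM per kb in Fra-2-labelled libraries and 1232 ± 100.1 CPM per kb in controls. *Tnc*, tenascin-C, followed with 911 ± 72.1 CPM per kb in Fra-2-labelled libraries and 861 ± 87.0 CPM per kb in controls. *Thbs1*, thrombospondin-1, had 522 ± 112 CPM per kb in Fra-2-labelled libraries and 409 ± 57.1 CPM per kb in controls. *Tgfbi* exceeded *Tnc* and *Tnc* exceeded *Thbs1* in 8 of 8 libraries, with no overlap of their ranges. *Fn1*, fibronectin, came next with 304 ± 43.0 CPM per kb in Fra-2-labelled libraries and 226 ± 21.5 CPM per kb in controls, and also lay below *Thbs1* in 8 of 8 libraries without overlap.

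Further down, neighbours in the order were closer. *Postn*, periostin, had 207 ± 55.6 CPM per kb in Fra-2-labelled libraries and 190.3 ± 32.1 CPM per kb in controls, and lay below *Fn1* in 7 of 8 libraries with overlapping ranges. *Fbln1*, fibulin-1, had 142 ± 13.9 CPM per kb in Fra-2-labelled libraries and 110.4 ± 23.8 CPM per kb in controls. *Vcan*, the hyaluronan-binding proteoglycan versican, had 106 ± 17.0 CPM per kb in Fra-2-labelled libraries and 113 ± 3.61 CPM per kb in controls. *Fbln1* lay above *Vcan* in 4 of 4 Fra-2-labelled libraries and in 2 of 4 controls, so the order of this pair was not settled by these data. *Thbs2*, thrombospondin-2, had 96.1 ± 13.2 CPM per kb in Fra-2-labelled libraries and 83.2 ± 7.59 CPM per kb in controls, below *Vcan* in 8 of 8 libraries although their ranges over libraries overlapped. *Npnt*, nephronectin, had 38.3 ± 5.19 CPM per kb in Fra-2-labelled libraries and 21.9 ± 7.78 CPM per kb in controls. *Emilin1*, an elastic-fibre-associated glycoprotein, was lowest with 12.8 ± 0.687 CPM per kb in Fra-2-labelled libraries and 13.0 ± 0.991 CPM per kb in controls. *Npnt* lay above it in 7 of 8 libraries, the exception being control 1.

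**Figure D1:**
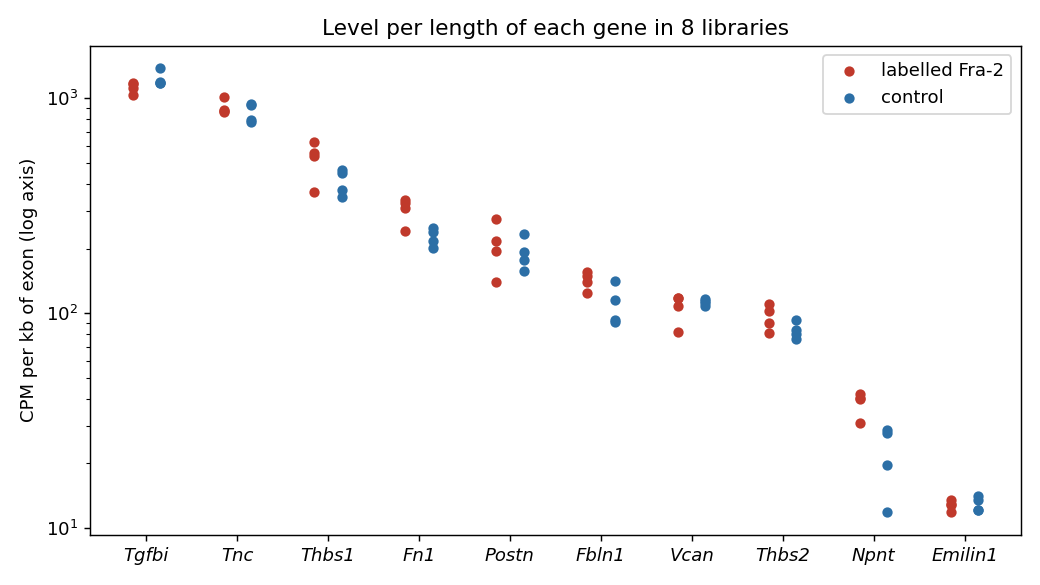
Level per length of the 10 genes (log axis, CPM per kb of exon), with 1 point per library, the Fra-2-labelled libraries left of the control libraries. *Tgfbi* (1124 and 1232 CPM per kb in Fra-2-labelled and control libraries) lies highest and *Emilin1* (12.8 and 13.0) lowest, and the groups are separate only for *Npnt*.

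Windows of 300 bases around the transcription starts of 8 of these genes (12 windows, RefSeq, build GRCm38.p6, 250 bases before and 50 after the start) were searched on both strands for the letters of the AP-1 element, TGANTCA, since Fra-2 binds such elements as a dimer with JUN proteins. None of the 12 windows held them, against 7.81% of 32851 windows of all genes, and the related letters TGACGTCA were in none of the 12, against 1.79% of all. TATAAA was in 4 of the 12, against 13.6% of all. The 4 were 1 of the 2 windows of *Postn*, that of *Thbs2* and both overlapping windows of *Tnc*, which hold the same site. These matches describe only these windows. *Fn1* and *Thbs1* had no window. The 150 bases before the start are shown for *Npnt*, which had the widest group difference, for *Tnc*, which had the most reads, and for *Postn*. Each of these genes had 2 windows, of which 1 is shown, for *Postn* the one with TATAAA. The strand is given with each, and capitals mark TATAAA.
Npnt (chr3:132950292-132950441, minus strand): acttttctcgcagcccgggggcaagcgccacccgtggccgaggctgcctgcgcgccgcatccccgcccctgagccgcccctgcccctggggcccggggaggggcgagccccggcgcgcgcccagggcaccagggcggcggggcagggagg
Tnc (chr4:64047016-64047165, minus strand): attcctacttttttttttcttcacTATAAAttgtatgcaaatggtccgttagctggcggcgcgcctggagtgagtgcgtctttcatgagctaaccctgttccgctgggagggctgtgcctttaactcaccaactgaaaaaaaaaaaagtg
Postn (chr3:54360957-54361106, plus strand): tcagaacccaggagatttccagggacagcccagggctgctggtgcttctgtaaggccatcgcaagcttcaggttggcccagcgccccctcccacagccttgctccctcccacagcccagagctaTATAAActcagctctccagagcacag

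None of the 10 genes differed between the groups past an adjusted p of 0.05 in edgeR's quasi-likelihood test, with 0 higher and 0 lower. Adjusted p-values ran from 0.137 (*Fn1*) to 0.981 (*Emilin1*). Over all genes 1.02% passed, 0.72% higher and 0.298% lower. At an unadjusted p under 0.05 stood 4 of the 10, *Fn1*, *Npnt*, *Fbln1* and *Thbs1*, all with a higher mean in the Fra-2-labelled libraries, where 8.71% of all genes stood at that level. DESeq2 called 2 of the 10 higher, *Fn1* (adjusted p = 0.0279) and *Npnt* (adjusted p = 0.00984), and 0 lower, while limma-voom called 0. DESeq2 also called more of all 15422 genes, with 272 higher and 97 lower, against 111 and 46 in edgeR. In limma-voom these counts were 114 and 44. The median log2 fold change of the 10 was 0.16, against -0.01 over all genes, and 7 of the 10 were above 0, against 47.8% of all genes.

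**Figure D2:**
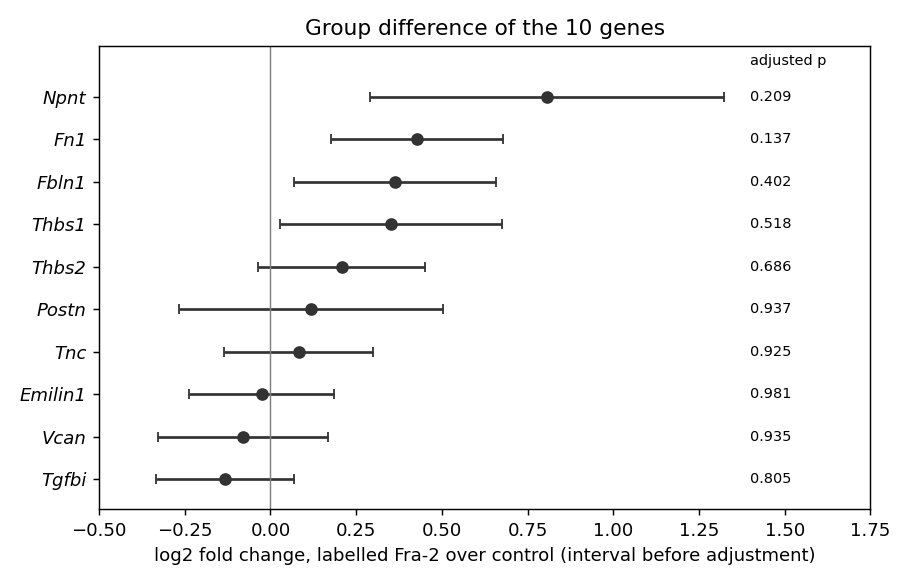
Log2 fold change of each gene in the Fra-2-labelled libraries over the control libraries (x axis), with its 95% interval and edgeR adjusted p. The intervals of *Npnt*, *Fn1*, *Fbln1* and *Thbs1* lie above 0 before adjustment for the number of genes, and no adjusted p is under 0.05.

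*Fn1* (ENSMUSG00000026193, chromosome 1, 71585520 to 71653200 in GRCm38) had 3604, 2829, 3826 and 3945 CPM in Fra-2 1 to 4, against 2339.7, 2539, 2782 and 2902 CPM in control 1 to 4. In 3 of 4 Fra-2-labelled libraries it lay above every control library, and Fra-2 2 lay between control 3 and control 4. In edgeR the log2 fold change was 0.43 (SE 0.117), a fold of 1.34 with a 95% interval of 1.13 to 1.60 (edgeR adjusted p = 0.137). Without Fra-2 2, the gene passed with a log2 fold change of 0.52 (edgeR adjusted p = 0.0215). Counts per gene do not separate the splice forms of fibronectin that carry the extra domains, and these were not analysed here.

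*Npnt* (ENSMUSG00000040998, chromosome 3, 132881745 to 132950291) encodes nephronectin, a basement membrane protein that is a ligand of the alpha-8 beta-1 integrin. It had 201, 154, 213 and 202 CPM in Fra-2 1 to 4, against 59.7, 99.0, 144 and 139 CPM in control 1 to 4. It was the 1 gene of the 10 whose groups did not overlap, a separation seen in 5.76% of all genes, with the Fra-2-labelled libraries above in 3.35% and below in 2.42%. The log2 fold change of 0.81 (SE 0.235) had a 95% interval of 0.29 to 1.32 and did not pass (edgeR adjusted p = 0.209). Control 1 was the lowest library, and without it the log2 fold change was 0.61 (edgeR adjusted p = 0.0861). The spread of *Npnt* within groups was greater than that of 99.5% of the 200 genes nearest to it in level.

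*Npnt* is also known as a transcript of matrix and lipid-type alveolar fibroblasts. Without *Npnt* itself, 11 other markers of these cells, led by *Mcam*, summed to 759, 733, 931 and 913 CPM in Fra-2 1 to 4, against 437, 541, 650 and 692 CPM in control 1 to 4. All 12 markers of the list had a positive log2 fold change, against 47.8% of all genes, with a median of 0.51, but 0 passed. The list includes *Itga8*, named after its values were seen, the integrin alpha-8 chain that binds nephronectin, which had 165 ± 45.8 CPM in the Fra-2-labelled libraries and 80.2 ± 21.8 CPM in the control libraries (edgeR adjusted p = 0.077). The 11 adventitial fibroblast markers, led by *Col14a1*, summed to 2150 to 2600 CPM in the Fra-2-labelled libraries and 1800 to 2240 CPM in the control libraries. Against 0.72% higher and 0.298% lower over all genes, 3 of these rose and 0 fell. They were *Dcn*, decorin, with 212 ± 30.2 CPM in Fra-2-labelled libraries and 140.0 ± 17.7 CPM in controls (edgeR adjusted p = 0.0323), *Dpt* (edgeR adjusted p = 0.049) and *Serpinf1* (edgeR adjusted p = 0.0497). Each of the 3 lost its call in 6 of the 8 fits that left out 1 library. *Dpt* also lost it without robust dispersion (edgeR adjusted p = 0.0603) and with a sex term (0.083), and *Serpinf1* with upper-quartile scaling (0.0502), a stricter filter (0.0508) and no robust dispersion (0.0508). In bulk RNA more cells of one kind and more RNA per cell cannot be told apart, and the part of these cells in the *Npnt* values was not tested.

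**Figure D3:**
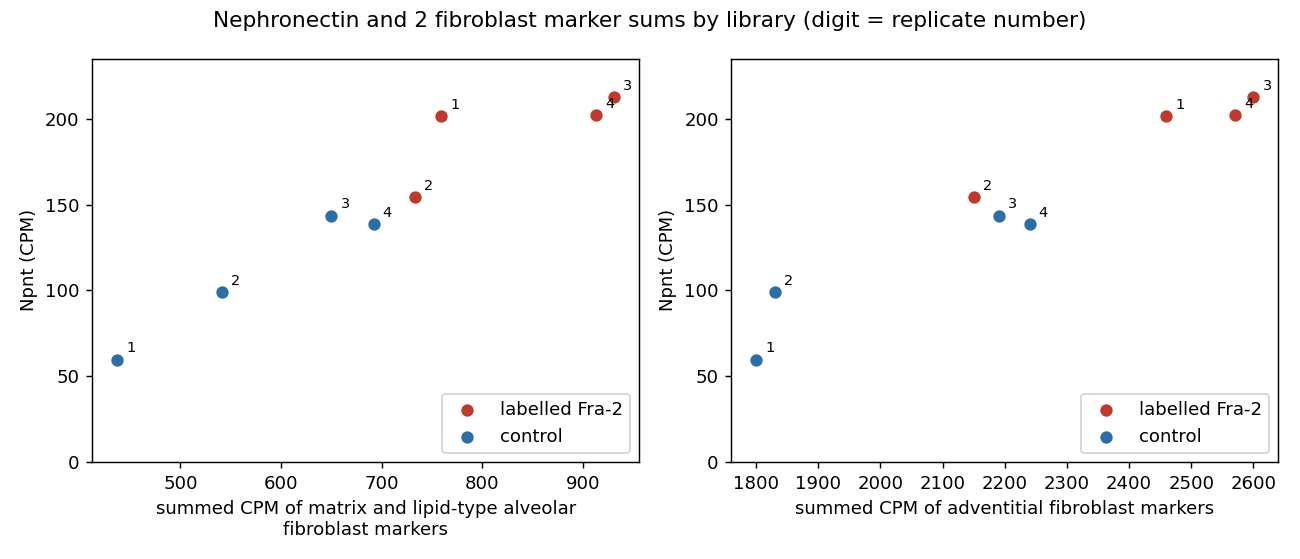
*Npnt* (y axis, CPM) against the summed CPM of 11 matrix and lipid-type alveolar fibroblast markers without *Npnt* (left) and of 11 adventitial fibroblast markers (right), 1 point per library. Control 1 is lowest on each axis, with 59.7 CPM of *Npnt*, and Fra-2 3 is highest, with 213 CPM.

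*Fbln1* (ENSMUSG00000006369, chromosome 15, 85205949 to 85286535), whose product binds fibronectin and elastic fibres, had 649, 607, 683 and 542 CPM in Fra-2 1 to 4, against 397, 406, 505 and 619.6 CPM in control 1 to 4. Control 4 lay above 2 of the 4 Fra-2-labelled libraries, so the groups overlapped. The difference, a log2 fold change of 0.36 (SE 0.138), did not pass (edgeR adjusted p = 0.402), with a fold interval of 1.05 to 1.58. *Fbln1* and *Npnt* both had their highest value in Fra-2 3 and their lowest in control 1.

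Both thrombospondin genes were expressed. They encode multimeric glycoproteins that inhibit angiogenesis, and thrombospondin-1 is also known as an activator of latent TGF-beta. *Thbs1* (ENSMUSG00000040152, chromosome 2, 118111876 to 118127133) had 3383, 2215, 3265 and 3809.5 CPM in Fra-2 1 to 4, against 2100.0, 2283, 2724 and 2823 CPM in control 1 to 4. As with *Fn1*, 3 of 4 Fra-2-labelled libraries lay above every control library and Fra-2 2 did not. Its log2 fold change of 0.35 (SE 0.151) did not pass (edgeR adjusted p = 0.518). *Thbs2* (ENSMUSG00000023885, chromosome 17, 14665500 to 14694235) had 719, 565, 634 and 775 CPM in Fra-2 1 to 4, against 655, 586, 529.6 and 561 CPM in control 1 to 4, with overlapping groups (log2 fold change 0.21, SE 0.114, edgeR adjusted p = 0.686).

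The balance of the paralogs within each library does not depend on scaling. *Thbs1* held 3.92 to 5.15 times the CPM of *Thbs2* in the Fra-2-labelled libraries and 3.21 to 5.14 times in the control libraries. The mean log2 ratio was 2.22 ± 0.173 in Fra-2-labelled libraries and 2.08 ± 0.324 in controls (SD, n = 4 each), a difference of 0.13 that did not pass a two-sided exact permutation test (p = 0.571, adjusted p = 0.571 over the 2 ratios tested, with 0.0286 the smallest p that 4 against 4 allows). Without control 1 that difference was -0.00167. *Postn* held 0.273 to 0.608 of the CPM of *Tgfbi* in the Fra-2-labelled libraries and 0.264 to 0.458 in the control libraries. Its mean log2 ratio was -1.28 ± 0.480 in Fra-2-labelled libraries and -1.50 ± 0.329 in controls, a difference of 0.22 (two-sided exact permutation p = 0.429, adjusted p = 0.571). That difference was 0.0361 without Fra-2 4, 0.0822 without control 4, 0.421 without Fra-2 2 and 0.348 without control 1, with unadjusted exact permutation p-values of 0.171 to 0.829 over the 8 fits that left out 1 library.

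*Postn* (ENSMUSG00000027750, chromosome 3, 54361109 to 54391037) is a matricellular gene with roles in collagen cross-linking and in fibroblast activation. It had 1696, 1217, 1891 and 2386 CPM in Fra-2 1 to 4, against 2032, 1542, 1673 and 1375 CPM in control 1 to 4. The Fra-2-labelled libraries held both the highest value, in Fra-2 4, and the lowest, in Fra-2 2, and the spread within groups was greater than that of 95.0% of the 200 genes nearest in level. A log2 fold change of 0.12 (SE 0.178) did not pass (edgeR adjusted p = 0.937), with a fold interval of 0.831 to 1.42. *Tgfbi* (ENSMUSG00000035493, chromosome 13, 56609523 to 56639562), which shares the fasciclin domains of periostin, had 4386, 4449.5, 4199 and 3923 CPM in Fra-2 1 to 4, against 4434, 4453, 4485 and 5211 CPM in control 1 to 4. Its values varied little, with a spread greater than that of 12.5% of genes nearest in level. The groups overlapped through Fra-2 2, which lay above control 1, and the log2 fold change of -0.13 (SE 0.0941) did not pass (edgeR adjusted p = 0.805).

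*Tnc* (ENSMUSG00000028364, chromosome 4, 63959785 to 64047015) encodes a glycoprotein that lowers the adhesion of cells to fibronectin and is present in developing and injured tissue. It ranked 7 by mean CPM among all genes. It had 6787, 6745, 6884 and 7919.9 CPM in Fra-2 1 to 4, against 6184, 6038, 7322 and 7229.6 CPM in control 1 to 4. Fra-2 4 was the highest library, and the other Fra-2-labelled libraries lay between the 2 lower and the 2 higher controls. The difference did not pass (log2 fold change 0.08, SE 0.102, edgeR adjusted p = 0.925), and the fold interval ran from 0.910 to 1.23.

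*Vcan* (ENSMUSG00000021614, chromosome 13, 89655312 to 89742509) had 1698, 1183, 1568 and 1709 CPM in Fra-2 1 to 4, against 1615, 1691, 1642 and 1566 CPM in control 1 to 4. The controls stood close together, and Fra-2 2 alone lay below all of them. A log2 fold change of -0.08 (SE 0.115) did not pass (edgeR adjusted p = 0.935), and it was 0.03 without Fra-2 2. *Emilin1* (ENSMUSG00000029163, chromosome 5, 30913402 to 30921277) had 58.4, 63.2, 66.4 and 64.2 CPM in Fra-2 1 to 4, against 60.2, 66.7, 60.0 and 69.9 CPM in control 1 to 4. The groups overlapped throughout (log2 fold change -0.03, SE 0.0986, edgeR adjusted p = 0.981), with a fold interval of 0.849 to 1.14.

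**Figure D4:**
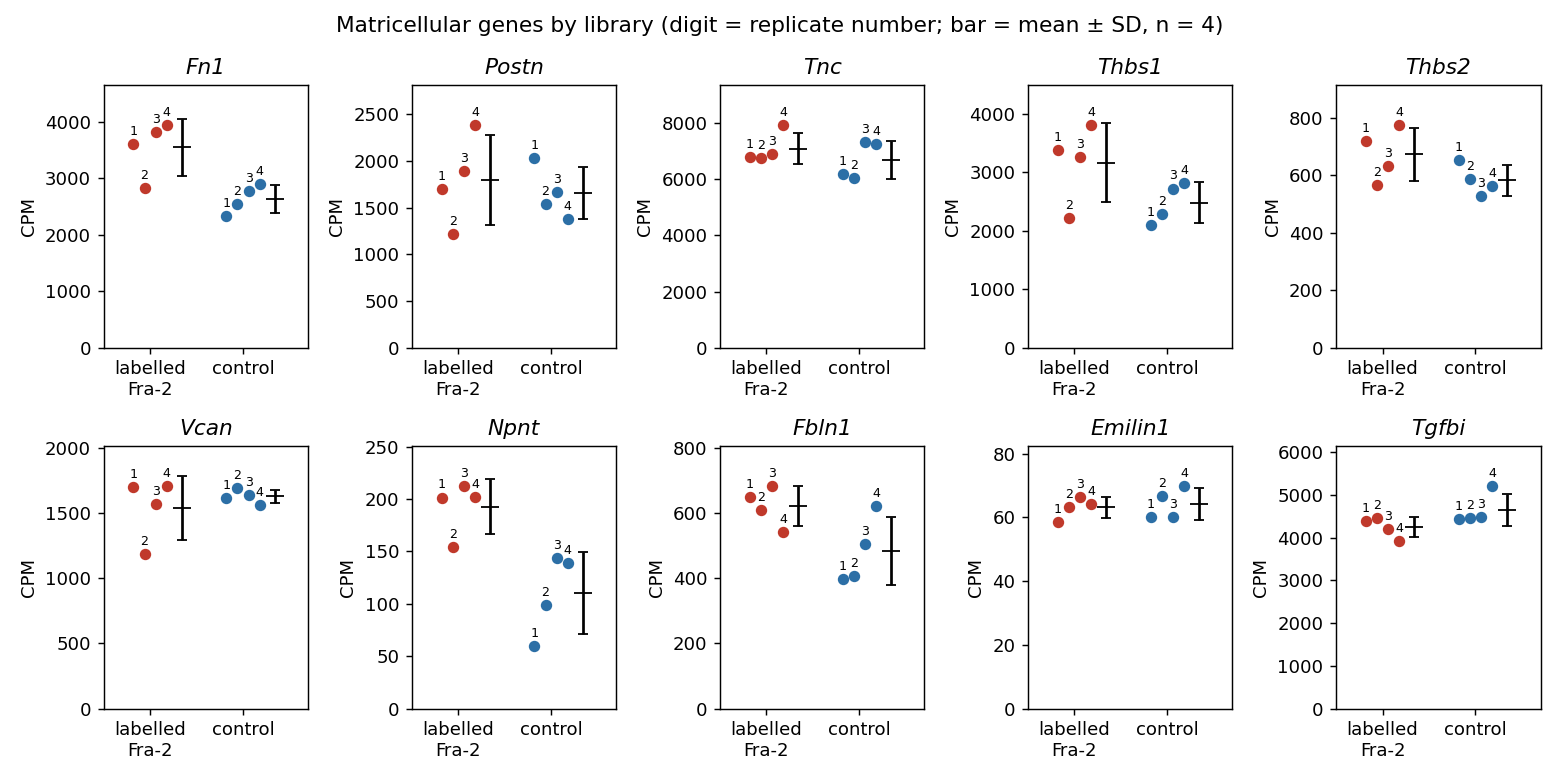
CPM of each gene in each library, with the Fra-2-labelled libraries (red) left of the control libraries (blue), replicate numbers above the points and the mean ± SD beside them (n = 4 each). *Npnt* is the panel with no overlap, and Fra-2 2 is the lowest library of its group in 7 of the 10 panels.

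Single libraries stood out across several of the genes. Fra-2 2 was the lowest library of its group for 7 of the 10 genes, *Emilin1*, *Fbln1* and *Tgfbi* being the exceptions, and Fra-2 4 was the highest of all 8 libraries for 6. Control 1 was the lowest of all 8 for 4 genes. These ranks hold for CPM after TMM scaling, and some differ for shares of all counts. There *Tnc* was lower in Fra-2 3 (0.669%) than in Fra-2 2 (0.708%). *Fbln1* was lower in control 2 (0.0398%) than in control 1 (0.0419%), and *Vcan* was higher in control 1 (0.170%) than in Fra-2 4 (0.166%). The sum over the 10 genes was 22929 ± 2167 CPM in the Fra-2-labelled libraries and 20986 ± 1406 CPM in the control libraries. Among the 45 pairs of these genes, *Fn1* and *Thbs1* had the most alike patterns over the 8 libraries, with a root-mean-square distance of 0.104 between their mean-centred log2 CPM, against a median of 0.279 over pairs. *Postn* and *Npnt* were the least alike, at 0.642. This distance is not scaled to a gene's own spread, so genes that vary little lie closer to most others. Its median to 9552 other protein-coding genes that averaged 5 CPM or more was 0.6 for *Npnt*, 0.338 for *Postn* and 0.204 for *Emilin1*. Among those 9552, the nearest to *Npnt* was *Fbln2*, which encodes fibulin-2, at 0.099. The next was *Pgm5*, at 0.13. The nearest to *Fn1* were *Slc41a2*, a magnesium transporter gene, at 0.0387 and *Slc48a1*, a haem transporter gene, at 0.0563. *Vwa5a* and *Gsr* were nearest to *Thbs1* (0.0667 and 0.0735), *Mon1b* and *Impdh1* to *Tnc* (0.0238 and 0.046), and *Phc2* and *Fam210b* to *Fbln1* (0.0761 and 0.0838). For *Thbs2* they were *Tmem168* and *Vps35* (0.0543 and 0.0728), for *Vcan* *Nol10* and *Zfp799* (0.0514 and 0.053) and for *Postn* *Zfp367* and *Stag1* (0.0952 and 0.0958). *Emilin1* was most like *Wfs1* and *Dffa* (0.0399 and 0.0453), and *Tgfbi* most like *Atrip* and *Atraid* (0.058 and 0.0584).

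Of 17 relatives of these genes by family that were tested, 0 rose and 1 fell, with a median log2 fold change of -0.12. The shares over all genes were 0.72% and 0.298%. The gene that fell, *Tnn*, encodes tenascin-N and had 5.83 ± 0.184 CPM in Fra-2-labelled libraries and 11.3 ± 2.51 CPM in controls (log2 fold change -0.95, SE 0.189, edgeR adjusted p = 0.0266). Its edgeR adjusted p reached 0.119 when control 2 or control 3 was left out, and it also missed the threshold without Fra-2 1, 3 or 4 and in limma-voom (adjusted p = 0.0622). The groups did not overlap in 7 of the 17, against 5.76% of all genes. Fra-2-labelled libraries lay below the controls for *Tnn*, *Thbs3*, *Thbs4*, *Fbln7* and *Emilin3*, against 2.42% of all genes. They lay above for *Fbln2* and *Acan*, against 3.35%. *Acan* had the largest log2 fold change of the list, 2.48, and did not pass (edgeR adjusted p = 0.173). *Acan*, *Thbs4* and *Emilin3* averaged under 5 CPM in each group. The most abundant relative, *Hmcn1*, named after its values were seen, encodes hemicentin-1 and had 2651 ± 489 CPM in Fra-2-labelled libraries and 2959 ± 189 CPM in controls (edgeR adjusted p = 0.829). *Fbln2*, whose pattern was nearest to *Npnt*, had 53.0 ± 5.11 CPM in Fra-2-labelled libraries and 32.2 ± 9.53 CPM in controls and did not pass (log2 fold change 0.72, SE 0.189; edgeR adjusted p = 0.119). *Thbs3*, a thrombospondin of the pentameric subgroup, was named after its values were seen and had 122 ± 3.97 CPM in Fra-2-labelled libraries and 144 ± 7.42 CPM in controls, with no overlap (edgeR adjusted p = 0.350). *Tnr* and *Comp* did not pass the filter on low counts.

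Among receptors for these proteins, 2 of 20 rose in the Fra-2-labelled libraries and 0 fell, with a median log2 fold change of 0.06. Of all genes, 0.72% rose and 0.298% fell. *Itgb5*, the integrin beta-5 chain, a partner of alpha-v, had 145 ± 15.2 CPM in Fra-2-labelled libraries and 98.4 ± 8.81 CPM in controls (edgeR adjusted p = 0.0215). *Itga5*, the alpha chain of the main fibronectin receptor, had 236 ± 19.7 CPM in Fra-2-labelled libraries and 173 ± 8.20 CPM in controls (edgeR adjusted p = 0.0385). Neither call held in all 8 fits that left out 1 library. In those fits the log2 fold change ran from 0.503 to 0.624 for *Itgb5* and from 0.393 to 0.486 for *Itga5*. *Itgb5* passed only in the fits that left out control 4, Fra-2 2 or Fra-2 4 among the 8 that left out 1 library, with 0.0894 the largest adjusted p, and *Itga5* only without control 4 or Fra-2 2, with 0.152 the largest. *Itga5* also missed the threshold with a sex term (edgeR adjusted p = 0.0766). The receptors *Itga9* and *Cd47* were named after their values were seen. *Itga9*, the alpha-9 chain that binds tenascin-C, had 1617 ± 101 CPM in Fra-2-labelled libraries and 1597 ± 31.5 CPM in controls (edgeR adjusted p = 0.984). *Cd47*, a thrombospondin receptor, had 307 ± 30.1 CPM in Fra-2-labelled libraries and 308 ± 49.8 CPM in controls (edgeR adjusted p = 0.998).

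Of 19 other matricellular genes tested, 2 rose and 0 fell, with a median log2 fold change of 0.31. For this list and those that follow, the shares over all genes were 0.72% higher and 0.298% lower, with a median of -0.01. *Ecm1*, which encodes a secreted glycoprotein that binds matrix proteins, had 100.3 ± 7.06 CPM in Fra-2-labelled libraries and 53.1 ± 5.61 CPM in controls (log2 fold change 0.92, edgeR adjusted p = 0.000513). The other was *Smoc2*, a calcium-binding matrix protein of the SPARC family, with 57.3 ± 8.56 CPM in Fra-2-labelled libraries and 8.71 ± 0.691 CPM in controls (edgeR adjusted p = 2.66e-07). Both kept their calls in all 8 fits that left out 1 library. Of 23 matrix assembly and hyaluronan genes, 1 rose and 0 fell, with a median of 0.13. This was *Tnfaip6*, whose product TSG-6 binds hyaluronan, with 13.5 ± 2.33 CPM in Fra-2-labelled libraries and 6.94 ± 1.52 CPM in controls (edgeR adjusted p = 0.0295). Of the 8 fits that left out 1 library it passed only in those without control 4 or Fra-2 2, and its largest adjusted p was 0.128. Of 16 matrix proteases and inhibitors, 1 rose and 0 fell (median 0.04). This was the matrix metalloproteinase *Mmp19*, with 32.8 ± 4.02 CPM in Fra-2-labelled libraries and 10.9 ± 3.14 CPM in controls (edgeR adjusted p = 0.000615). *Mmp19* kept its call in all 8 fits that left out 1 library, with 0.00562 the largest edgeR adjusted p. Of 18 TGF-beta response and signalling genes, 0 rose and 0 fell (median 0.06). The most abundant of them, *Col1a1*, the alpha-1 chain of collagen I, had 5852 ± 602 CPM in Fra-2-labelled libraries and 6056 ± 678 CPM in controls (edgeR adjusted p = 0.958).

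**Figure D5:**
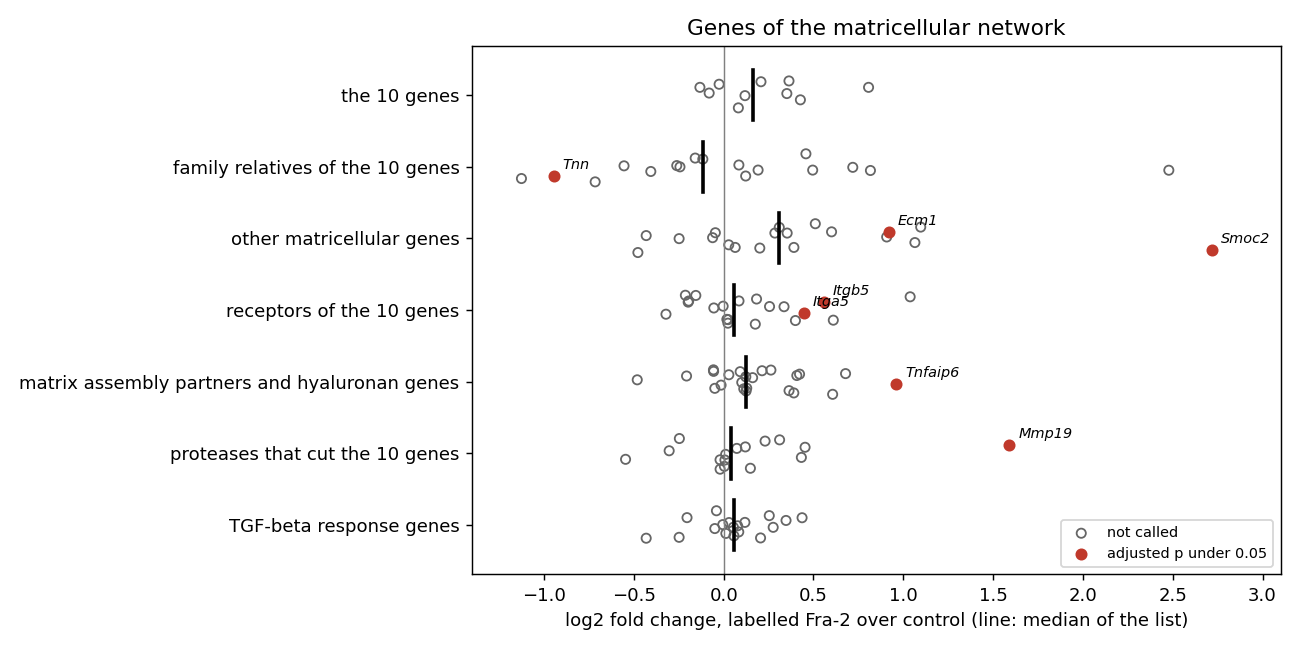
Log2 fold change of each tested gene in the Fra-2-labelled libraries over the control libraries (x axis) for the 10 genes and 6 related lists, with filled points for an edgeR adjusted p under 0.05 and a line at each median. The 10 genes have no filled point, and the filled points of the other lists are *Tnn*, *Ecm1*, *Smoc2*, *Itga5*, *Itgb5*, *Tnfaip6* and *Mmp19*.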

How the data were processed

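Per the labels' protocols, mRNA from 50 ng of total RNA was amplified to cDNA (NuGEN Ovation RNA-Seq System V2) before transposase-based library construction (Nextera XT), steps that can add spread between libraries. The authors deposited raw counts per mouse Ensembl gene. The submitters' processing notes name GRCh38, a human build. Aligner, counter and gene annotation were not given in the sources used here. Symbols (42548 of 43432 identifiers), coordinates and exon lengths came from GENCODE M21 (GRCm38) and a table of gene names. Other genes overlapped 2.50%, 2.26% and 3.42% of the exon length of *Fn1*, *Tnc* and *Thbs1*, and held 21, 476 and 26 reads in all.

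Counts were tested in R 4.3.3 with edgeR 4.0.16 (filterByExpr, minimum count 10, minimum total 15; TMM scaling; robust quasi-likelihood F-test, two-sided; Benjamini-Hochberg over 15422 genes, threshold 0.05). Within groups, libraries differed beyond sampling noise (chi-square per gene 36.0 to 155), and all 8 were kept. SE was derived from F, and intervals are 95%. Patterns used log2 CPM with a prior count of 2. Alternatives were scaling by RLE, by upper quartile or by total count, testing without a filter or with a stricter one, DESeq2 1.42.0, limma-voom (limma 3.58.1), no robust dispersion, a replicate block, the 20 most abundant genes left out, a sex term, an adjusted p of 0.10, a pseudocount of 1 CPM for the ratios and each library left out. The procedure was tested on simulated data with 50 genes planted at each size of change. It recovered 36% at a fold of 1.5, 68% at 2, 98% at 4 and 100% at 8. There were 6 false calls among 157. Among genes like those planted, a true change of 1.5-fold or less would thus often be missed. A gene not called is not shown to be unchanged. Recovery was not measured for the 10 genes themselves, and their fold intervals differ. Those of *Postn*, *Thbs2*, *Tnc*, *Vcan*, *Emilin1* and *Tgfbi* lay within 0.793 to 1.42, before adjustment for the number of genes. Those of *Fn1*, *Thbs1*, *Fbln1* and *Npnt* reached 1.60, 1.60, 1.58 and 2.50. The 10 genes and all lists were chosen with earlier results of these data known. Besides the 10 and *Fosl2*, genes were named as up to 3 called members of each related list, or its most abundant one if none passed, the most abundant and the called markers of each cell type, and the 2 genes most alike to each of the 10. *Hmcn1*, *Thbs3*, *Thbs4*, *Fbln7*, *Emilin3*, *Acan*, *Itga8*, *Itga9*, *Cd47*, *Plin2*, *Lpl* and *Slc7a10* fall outside this rule and were named after their values were seen.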

Additional observations from a re-analysis of the deposited data

Results flagged for a closer look

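Among the 24 sets of 4 libraries examined (12 values in each group), 2 held a library far from the other 3, where chance alone gives about 1 in 20. *Tnc* measured 7920 CPM in Fra-2 4, against 6740 to 6880 CPM in the other Fra-2-labelled libraries. Without Fra-2 4 its log2 fold change was 0.02 (edgeR adjusted p = 0.978). *Tgfbi* measured 5210 CPM in control 4, against 4430 to 4490 CPM in the other control libraries. Without control 4 its log2 fold change was -0.07 (edgeR adjusted p = 0.859). Both were flagged on CPM after TMM scaling. As a share of all counts, each library stood less far from its group. *Tnc* took 0.767% in Fra-2 4, against 0.669% to 0.708% in the other Fra-2-labelled libraries. *Tgfbi* took 0.514% in control 4, against 0.437% to 0.467% in the other control libraries.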

How the results depend on the processing

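Of 188 refitted values of the 10 genes over 19 alternatives, 180 kept their direction and their side of the threshold and 3 passed it (*Fn1* and *Npnt* in DESeq2, *Fn1* without Fra-2 2). The other 5 changed sign near 0 when a library was left out. Over those fits the log2 fold change ran from -0.0527 to 0.0195 for *Emilin1* (0.0139 without Fra-2 1, 9.38e-06 without control 2, 0.0195 without control 4). It ran from -0.134 to 0.0279 for *Vcan* (highest without Fra-2 2) and from -0.0472 to 0.268 for *Postn* (lowest without Fra-2 4). No scaling turned a sign. The number of the 10 called higher was 2 in DESeq2, 0 to 1 without single libraries and 0 in the other alternatives, and the number called lower was 0 in every alternative. Over all genes 111 were higher and 46 lower, against 272 and 97 in DESeq2, 50 to 153 and 22 to 52 without single libraries, and 73 lower at an adjusted p of 0.10. The difference in log2 ratio of *Thbs1* over *Thbs2* ran from -0.00167 (without control 1) to 0.225 without single libraries, and that of *Postn* over *Tgfbi* from 0.0361 (without Fra-2 4) to 0.421 (without Fra-2 2). The cause was not tested. With the replicate number as a block 137 genes were higher, 53 were lower and 0 of the 10 passed. Same-numbered libraries correlated at -0.143 to 0.376, so the numbers were not taken as pairs, and 2 of the 4 correlated best with their own number.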
